A study of Homo sapiens with 12 samples.

Results

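Retained introns are introns still present in polyadenylated RNA. The introns described here were selected on their measured retention in the 3 untreated wild-type (WT DMSO) samples of a B cell line, at a mean of 15% or more, and 2623 introns in 1668 genes met this rule. They made up 3.44% of the 76188 introns that had 20 or more reads in all 12 samples and evenly covered ends. Retention is the percentage of an intron's reads that come from unspliced rather than spliced RNA. The WT DMSO levels that chose the introns are given as a description only. Of the 1668 genes, 1135 held 1 such intron and 533 held 2 or more.

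Most introns are removed while or soon after the RNA is made, and a transcript that keeps an intron often stays in the nucleus or is degraded. A subset is kept in part of the finished transcripts in unperturbed cells, and some genes for splicing factors and their kinases are known to use such introns to limit their own output. SF3B1 is a subunit of the U2 small nuclear ribonucleoprotein that holds the branch point near the 3′ end of the intron, and H3B-8800 is an orally available splicing modulator directed at the SF3B complex. K700E is a recurrent SF3B1 mutation in chronic lymphocytic leukemia.

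MEC1 is an established B cell line from chronic lymphocytic leukemia. Cells were kept for 6 h with 75 nM H3B-8800 or with its vehicle DMSO, in 4 groups of 3 samples: K700E in H3B-8800, K700E in DMSO, WT in H3B-8800 and WT in DMSO. The 3 K700E cultures (41, 38 and 15b) carried c.2098A>G together with c.2106G>A, WT replicate 3 (34b) carried c.2106G>A alone, and WT replicates 1 and 2 (a and b) carried neither by their labels. Each culture was sampled under both treatments, so a replicate is a culture. The p-values rest on the spread between the 3 cultures within a group, pooled over the 4 groups. The main fit did not pair the 2 samples of a culture. A difference between K700E and WT cannot be told apart from other differences between these cultures, and the inclusion table holds no base calls to check the genotypes.

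The samples held 45840233 to 56676172 spliced junction reads. Unspliced junction reads made up 5.10% to 6.05% of junction reads in K700E H3B-8800 samples and 2.31% to 2.404% in K700E DMSO samples, against 4.497% to 5.71% in WT H3B-8800 and 1.86% to 2.43% in WT DMSO samples. A retained intron was typically covered by 122 to 184 reads, the range of the sample medians. With 122 reads, a level of 24.6% has a 95% Wilson interval of 17.8% to 32.9%, which covers counting error only. All 10 B cell markers were above 1 RPM (spliced reads scaled to the sample's spliced total) in each group. T and NK cell markers summed to at most 1.56 RPM and myeloid markers to at most 1.72 RPM, while 6 fibroblast and epithelial markers summed to 11.4 to 20.01 RPM.

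The ends of 10 of these introns, all named in the results below, are shown as examples. A link between these letters and the changes in retention was not tested. For each, the first line gives 6 exon bases and the first 14 intron bases, and the second gives the last 24 intron bases and 6 exon bases. Capitals mark the first and the last 2 bases of the intron. Sequences are from GENCODE release 29 transcripts (GRCh38), in which another transcript's exon covers the intron, and read 5′ to 3′ on the gene's strand. NRDE2, DHX38 and CLK1 hold introns that rose under the drug in K700E, and RSRP1, CCDC189 and SNHG1 hold introns that fell. WDR6 holds an intron that was lower in K700E than in WT. UBXN4, GNL3 and LSM8 hold introns that start with letters of the minor (U12) class. NRDE2, CLK1, RSRP1, CCDC189 and SNHG1 lie on the minus strand and DHX38 (chr16:72104132-72104485), WDR6, UBXN4, GNL3 and LSM8 on the plus strand; positions of the others stand beside their values.
NRDE2 start: gcaaagGTaagtgttaaagg
NRDE2 end: gcggccttcctgcctgccccctAGgtgttg
DHX38 start: cgggagGTgagggctgtgtg
DHX38 end: cctccgagccgcctcttctctcAGgtagtg
CLK1 start: tgaattGTaagttcttggta
CLK1 end: cagcaactttctctttattctcAGttttgc
RSRP1 start: cctgaaGTaagtattctagg
RSRP1 end: tacactttttcttaacctgtctAGctgtcg
CCDC189 start: gagggaGTagggactgaggg
CCDC189 end: actcactcctctctccctcccaAGggtgct
SNHG1 start: tgagagGTtagttgatattt
SNHG1 end: acccacagctttgtttttctctAGgtacta
WDR6 start: cgtaagGTgagagcataggg
WDR6 end: gctgggccaccccccgccccccAGgctctt
UBXN4 start: aaatctGTatcctttcagta
UBXN4 end: gttagacttcattaaactgtacAGatcctg
GNL3 start: accaagGTatcctttattag
GNL3 end: taattcaactatttggaattttAGcgtgtg
LSM8 start: tcaaccGTatcctcaagctg
LSM8 end: cactttctttgattcagttatcAGgaactg

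The retained introns were shorter than tested introns at large, with a median length of 501 bases against 992 bases. An annotated exon of another transcript covered 40.1% of them, against 11.2% of the 45193 tested introns, and 30.1% lay in a transcript annotated as a retained intron, against 9.13%. They lay within the coding part of a gene in 83.0% of cases, against 95.2% of tested introns. Introns of noncoding transcripts made up 7.93%, against 1.00%, and introns of the 5′ UTR made up 7.17%, against 2.98%. The last intron of a transcript was the retained one in 14.6% of cases and the first in 7.78%, against 11.3% and 4.81% of tested introns.

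GT at the start and AG at the end were present in 98.0% of the 1051 retained introns with a sequence, against 98.9% of 5039 tested introns with one. On average 4.16 of the 6 letters GTAAGT were matched at the start of a retained intron, against 4.33 in tested introns, and all 6 were matched in 6.57% against 9.37%. Of the 20 bases before the final 2, 72.8% were C or T in retained introns, against 74.6%. GC content had a median of 57.0% in retained and 55.1% in tested introns. These letter and GC values rest on covered introns alone, since no genome sequence was used here. Over all retained introns, 34.2% had a length divisible by 3, which can keep a reading frame, against 33.2% of tested introns.

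In K700E, the mean of the sample medians was 27.1 points higher under the drug. The median over the retained introns was 54.2%, 53.5% and 49.0% in the 3 K700E H3B-8800 samples and 25.3%, 24.4% and 25.7% in the 3 K700E DMSO samples. In WT it was 49.3%, 56.1% and 57.2% under H3B-8800 and 21.3%, 26.1% and 26.95% in DMSO. No H3B-8800 sample overlapped a DMSO sample, and WT replicate 1 was the lowest of its group in both treatments, as was K700E replicate 3 of the H3B-8800 samples. Within a group, the SD over 3 samples of a single intron had a median of 4.31 points in K700E H3B-8800, 3.15 in K700E DMSO, 4.49 in WT H3B-8800 and 4.00 in WT DMSO. In the other tested introns the median level was 6.73% ± 0.95 in K700E H3B-8800 and 1.49% ± 0.04 in K700E DMSO, against 6.42% ± 0.68 in WT H3B-8800 and 1.32% ± 0.25 in WT DMSO (SD of sample medians, n = 3 each).

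**Figure D1:**
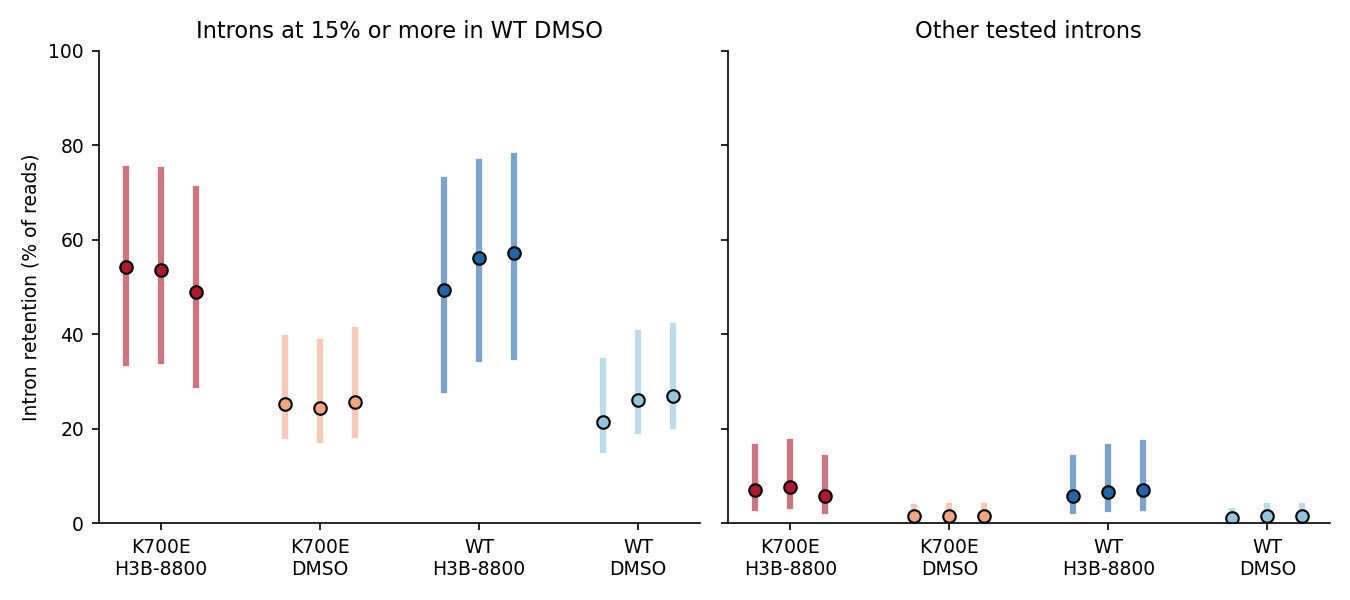
Intron retention in percent of reads (vertical axis) in each of the 12 samples, by group (horizontal axis), for the 2623 retained introns (left) and the other 42614 tested introns (right). Dots are sample medians and bars run between quartiles; retained introns have medians of 49.0% to 57.2% in H3B-8800 samples and 21.3% to 26.95% in DMSO samples.

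The rule's threshold cut through a continuous range. Just inside it, NDUFA10, GNL3 and TESK1 introns had WT DMSO means of 15.003%, 15.01% and 15.013%. Just outside, TMEM234 and RAD52 introns had 14.987% each and PMPCB had 14.993%. At the upper end, introns of UVSSA, a DNA repair factor, and ZNF324, a zinc finger protein, averaged 100% in all 4 groups. Both had 0 spliced reads in all 12 samples, so these values do not show that either is spliced in these cells. In all, 44 retained introns averaged over 99% and were not tested, and 27 of them had 0 spliced reads in every sample. A further 2606 introns reached 15% but were left out because their ends were unevenly covered, 49.8% of all that reached it. Those left out had a median level of 69.1% in WT DMSO, and 39.9% lay in noncoding transcripts.

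The comparison of H3B-8800 with DMSO in K700E used samples whose retention levels the rule did not use. The rule's read minimum and its filter for evenly covered ends did use all 12 samples. An intron was called at an adjusted p under 0.05, from limma on log2 odds over all 109088 tested events, and a difference of at least 10 percentage points. Of 2579 retained introns tested, 1569 (60.8%) rose, 141 (5.47%) fell and 869 were not called. Over all 45193 tested introns, 31.6% rose and 0.365% fell. A fall of 10 points needs a starting level of 10% or more, and 141 of the 165 falls over all introns were in retained introns. Introns below the rule's threshold that were at 10% or more in K700E DMSO, 2028 in number, rose in 60.3% and fell in 1.18% of cases. This set was chosen on the K700E DMSO levels that the comparison itself uses. Its introns lay below the rule's threshold in WT DMSO, and their K700E DMSO levels were not matched to those of retained introns. Its shares are therefore a description, and nothing is concluded from how they differ from those of retained introns. The median change was 19.3 points in retained introns against 5.02 points in all tested introns, while in log2 odds it was 1.46 against 2.18. The 3 K700E H3B-8800 samples lay apart from the 3 K700E DMSO samples in 1557 of the introns that rose and 137 of those that fell. These introns were already selected by the call, so the counts describe them and add no support. The same count over all tested introns is not given here.

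**Figure D2:**
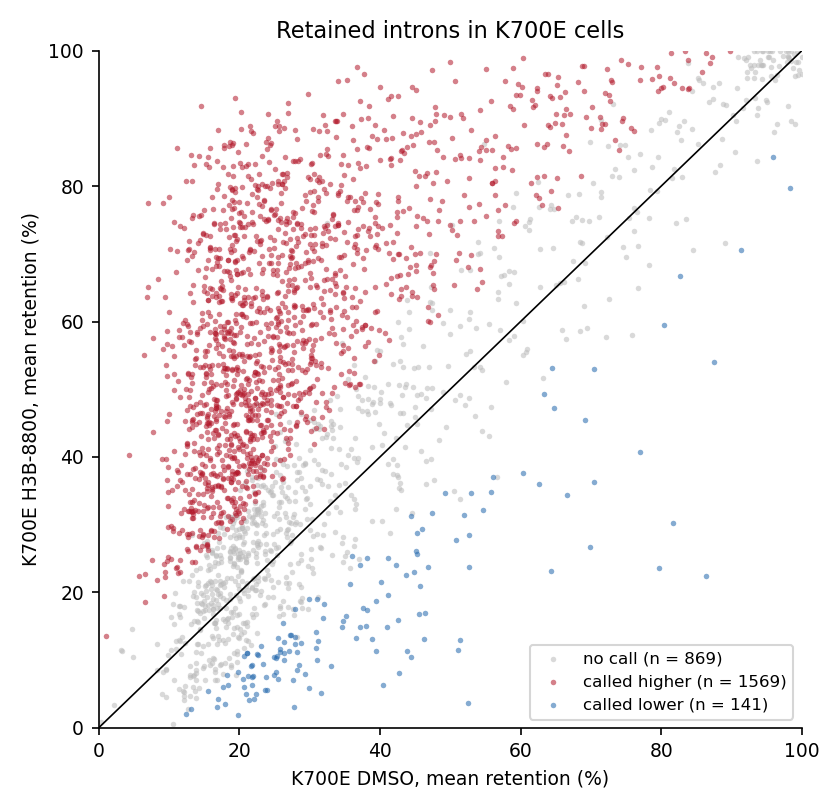
Mean retention in percent of each tested retained intron in K700E H3B-8800 (vertical axis) against K700E DMSO (horizontal axis), n = 3 samples each, with the line of equal values. The 1569 introns that rose lie above the line and the 141 that fell lie below it.

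The share of introns that rose was lower in the classes that stood higher in WT DMSO, whose percents had less room to rise. In the 1350 introns at 15% to 25% in WT DMSO, the median was 40.7% in K700E H3B-8800 and 19.1% in K700E DMSO, and 65.7% rose. In the 832 introns at 25% to 50%, medians were 56.8% and 32.4%, and 63.0% rose. The 243 introns at 50% to 75% had medians of 76.8% and 60.2%, with 52.3% rising. In the 198 introns at 75% or more the medians were 97.1% and 93.2%, and 20.1% of the 154 tested rose. Falls were called in 3.26%, 8.29%, 7.41% and 6.49% of these classes, from low to high. The median change in log2 odds was 1.56, 1.39, 1.16 and 0.95 in the same order. Why fewer introns rose in the higher classes was not tested. Retention reached 50% or more in 1385 retained introns in K700E H3B-8800, against 440 in K700E DMSO.

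Short introns rose more often. Of 440 retained introns up to 150 bases, 72.3% rose, and of 431 over 2000 bases, 38.5% rose and 11.8% fell. The same classes of all tested introns rose in 45.8% and 17.2% of cases. Retained introns of noncoding transcripts rose in 37.4% and fell in 13.4% of 179 cases. Those of the 5′ UTR rose in 49.5% of 182 cases, those of the 3′ UTR in 64.6% of 48, and those within the coding part in 63.6% of 2170. Over all tested introns of these regions, 24.9% of noncoding, 22.2% of 5′ UTR, 31.1% of 3′ UTR and 31.9% of coding introns rose.

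Introns with the largest rises came from genes with varied roles. The last intron of TRIM11, a ubiquitin ligase (chr1:228395253-228396946), was retained at 91.7%, 92.2% and 91.6% in K700E H3B-8800 samples, against 12.3%, 14.6% and 16.8% in K700E DMSO samples. All 3 treated samples lay far above all 3 untreated ones, a rise of 77.2 points or 6.01 ± 0.30 in log2 odds (SE; adjusted p = 2.59e-08), and a gene annotated on the other strand overlaps it. In the last intron of NRDE2, which takes part in nuclear RNA surveillance (chr14:90278462-90279061), levels were 89.9%, 77.9% and 89.1% in K700E H3B-8800, against 12.1%, 11.02% and 10.4% in K700E DMSO. The rise was 74.4 points (adjusted p = 2.07e-07). Also among the 10 largest were introns of GIGYF1, a translation repressor (71.4 points), NOM1 and IMP4, ribosome assembly factors (71.4 and 70.5 points), WDR24, a subunit of an amino acid sensing complex (70.1 points), and TUBGCP6 of the gamma-tubulin ring complex (68.8 points).

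Genes of the splicing machinery and its kinases held introns that moved both ways. Of 14 tested retained introns in splicing and transcription kinases and their cyclins, 10 rose and 3 fell, with a median of 27.4 points. An intron of CLK2, a kinase of SR proteins, was at 60.4%, 63.4% and 65.7% in K700E H3B-8800, against 20.04%, 19.9% and 22.2% in K700E DMSO (adjusted p = 5.85e-07). The CLK1 intron shown above (chr2:200856986-200857717), a known detained intron of a related kinase, was at 45.9%, 54.6% and 44.6%, against 15.1%, 19.0% and 16.2%, a rise of 2.22 ± 0.26 in log2 odds (SE; adjusted p = 1.08e-05). Groups did not overlap in either intron. CCNT2, a cyclin of the elongation kinase CDK9, rose by 49.1 points, and CDK12, a kinase of the polymerase tail, by 41.7 points. CDK11A rose by 55.5 points, with reads that cannot be safely separated from its near-identical copy CDK11B. Introns of CCNL1 and CCNL2, cyclins of CDK11, and of PRPF4B, a spliceosome kinase, fell by 18.9, 14.7 and 17.6 points, and a second CCNL1 intron rose by 13.8 points.

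Of 12 retained introns in SR proteins and SR-related proteins, 2 rose and 3 fell, while in the spliceosome core 3 of 5 rose and 2 fell. RSRP1, an SR-related protein, held the intron with the largest fall (chr1:25243634-25245149). It was at 23.5%, 21.6% and 22.2% in K700E H3B-8800, against 85.8%, 89.5% and 84.1% in K700E DMSO, with no overlap, a change of -4.48 ± 0.26 in log2 odds (SE; adjusted p = 6.78e-08). In the core list, DHX38, the helicase of the second splicing step, rose to 79.5% ± 3.5 in K700E H3B-8800, against 22.7% ± 1.8 in K700E DMSO (SD, n = 3 each). U2AF1L4, a paralog of the small U2AF subunit, rose by 35.2 points and USP39, a tri-snRNP protein, by 16.9 points, while both introns of PRPF39, a U1 snRNP protein, fell, by 13.9 and 14.5 points. Introns of SREK1 and SRSF11 fell by 18.0 and 17.3 points, and NKTR, a cyclophilin with an SR domain, held an intron that rose by 34.5 points.

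Among hnRNPs and other RNA-binding proteins, 6 of 10 introns rose and 2 fell. CELF1, a regulator of splicing and decay, held an intron in its 3′ UTR at 94.3%, 96.0% and 93.7% in K700E H3B-8800, against 39.3%, 37.8% and 43.1% in K700E DMSO. The 2 that fell were in MBNL1, a splicing regulator (56.1 points), and TIA1, a stress granule protein (24.6 points). In DDX and DHX helicases, 13 of 20 rose and 1 fell, in DHX35 (10.3 points), and the DDX56 intron was at 77.0%, 77.9% and 76.9%, against 19.5%, 17.3% and 19.0%. Those triplets lay far apart (adjusted p = 2.15e-08). In nonsense-mediated decay and RNA export, 4 of 8 rose and 1 fell, the risers being in THOC1, CHTOP, MCM3AP and NXF1 (32.1, 30.9, 28.2 and 16.1 points) and the faller in UPF3A (14.5 points). MCM3AP and PRPF4B introns overlap a gene on the other strand.

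A list of genes known for feedback through retained introns had 8 tested members, of which 6 rose and 0 fell. All 4 retained introns of MAT2A, which makes S-adenosylmethionine, rose, by up to 37.3 points. The OGT intron, in the gene of the enzyme that adds O-GlcNAc, was at 56.5%, 55.9% and 63.6% in K700E H3B-8800, against 66.4%, 67.4% and 71.5% in K700E DMSO. Its difference of -9.78 points was below the size threshold (adjusted p = 0.0265) and passed it without K700E H3B-8800 replicate 3 (-12.2 points) and without K700E DMSO replicate 1 or 2 (-10.8 and -10.3 points). PABPN1, a poly(A)-binding protein, moved by 5.01 points without a call.

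DNA repair and checkpoint genes had 28 of 47 introns higher and 4 lower, led by FANCA (67.3 points) and RAD9A (60.4 points), with FANCM and ERCC5 at 53.5 and 56.0 points. The 4 that fell were in MUTYH (2 introns), MRE11 and POLE (12.1 to 16.1 points). Aminoacyl-tRNA synthetases had 8 of 10 higher and 0 lower, among them CARS, SARS2, VARS2 and HARS2 (60.3, 53.2, 31.6 and 29.1 points; HARS lies on the other strand of HARS2). Cell cycle and mitosis genes had 8 of 10 higher and 0 lower, including CENPT of the kinetochore, the WEE1-related kinase PKMYT1, and RBL2 and E2F4 of the DREAM complex. Chromatin regulators had 13 of 24 higher and 0 lower, with HDAC7 and MEN1 at 51.4 and 34.1 points. These counts stand beside 60.8% higher and 5.47% lower among all tested retained introns.

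In the NF-kappaB and Toll-like receptor list 6 of 13 rose and 2 fell: IKBKG, the regulatory subunit of the IKK complex, was at 83.0%, 85.4% and 76.3% in K700E H3B-8800, against 20.5%, 21.2% and 22.0% in K700E DMSO. NFKB2, TRAF1, IKBKE and MYD88 rose by 49.8, 49.3, 42.2 and 42.1 points, and introns of IKBKB and IRAK1 fell by 18.4 and 11.6 points. Of 4 introns in the B cell receptor list, 1 rose and 0 fell, and those of SOS1 and CD22 were not called. Of 4 introns in apoptosis regulators 2 rose, in the BH3-only gene BMF (58.9 points) and in BCL2L2 (39.0 points). BIRC3 and BAK1 stood at 88.0% and 96.4% in K700E H3B-8800, against 96.1% and 99.4% in K700E DMSO, without a call. Both changes passed the limma test (adjusted p = 0.00272 and 0.00276) but were below the size threshold of 10 points. Neither has GT and AG at its ends or the U12-type letters at its start. BIRC3 starts with AT and ends with AC, and BAK1, of 60 bases, starts with GA and ends with TG. Whether these 2 are true introns was not tested.

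Small nucleolar RNA host genes carry small RNAs in their introns, which are released once the intron is spliced out. They had 27 tested retained introns, 36.5% of their 74 tested introns, of which 4 rose and 10 fell, with a median of -8.52 points. SNHG1 accounted for 6 of the falls. Its intron shown above (chr11:62853834-62854017) was at 10.7%, 8.80% and 7.95% in K700E H3B-8800, against 32.0%, 34.4% and 32.7% in K700E DMSO (adjusted p = 6.88e-07). All 8 retained SNHG1 introns were lower in every treated sample than in every untreated one, and the spliced reads of this intron rose by 2.20 in log2 while its unspliced reads changed by 0.19 (adjusted p = 0.36). In 6 of the 8 SNHG1 introns unspliced reads were called higher too, by 0.41 to 1.13, and in all 8 spliced reads were called higher, by 1.62 to 2.95. GAS5 had 7 retained introns, 1 of them called, at 12.02% ± 0.93 in K700E H3B-8800 and 23.1% ± 2.4 in K700E DMSO. Further falls were in SNHG12, SNHG17 and SNHG19 (11.3, 15.4 and 15.6 points), while SNHG20 (2 introns), a second SNHG12 intron and TAF1D rose by 19.4 to 25.6 points. Of 32 retained introns of any gene that hold an annotated small RNA, 7 rose and 8 fell.

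**Figure D3:**
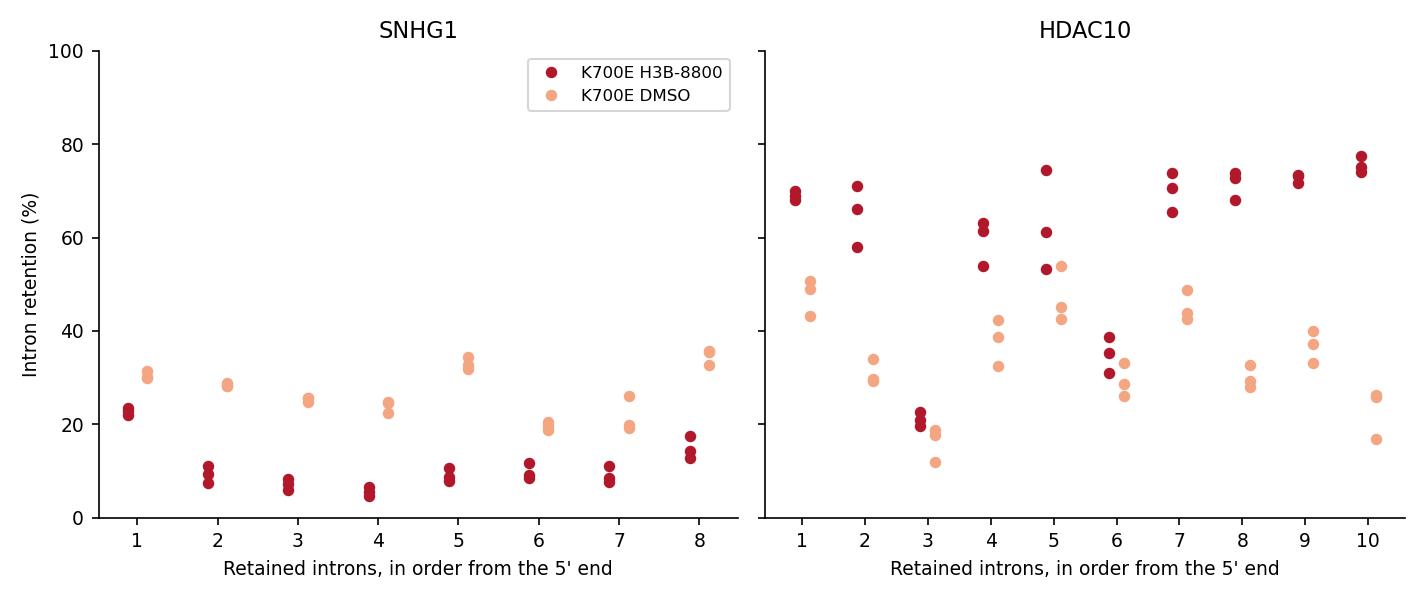
Retention in percent (vertical axis) of the retained introns of SNHG1 (8 introns, left) and HDAC10 (10 introns, right), in order from the 5′ end (horizontal axis); each point is 1 K700E sample, in H3B-8800 or DMSO. Every SNHG1 intron is lower in H3B-8800, and 7 of the 10 HDAC10 introns were called higher.

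Retained introns clustered in some genes, named here by their number of such introns. HDAC10, a polyamine deacetylase, had 10 among 16 introns with reads, of which 7 rose and 0 fell. MAN2C1 and NBEAL2 had 9 each, with 5 and 8 rising, and SLC26A6, an anion transporter, had 7 with 6 rising. In 21 genes introns went both ways. MUTYH, a DNA glycosylase, had 4 of 8 higher and 2 lower, and MSH5, a meiotic MutS homologue, had 2 of 7 higher and 3 lower. The remaining 10023 tested introns of genes with retained introns rose in 45.2% of cases, against 25.1% of the 32591 introns of genes without any. The first set stood higher in K700E DMSO, with a median of 2.35% against 1.36%, and a call needs 10 points. In log2 odds their median changes were closer, at 2.43 against 2.16. Retained introns of 1 gene share its transcripts and are not independent.

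Retained introns that start with ATATCCT or GTATCCT, read on the gene's strand, numbered 14 of the 1051 with a sequence (1.33%), against 42 of 5039 tested introns (0.833%). Of these 14, 9 (64.3%) rose, 0 fell and 5 were not called, beside 60.8% higher among all tested retained introns, and 6 of the 28 tested introns with such letters that were below the threshold rose. UBXN4, of the endoplasmic reticulum degradation machinery (chr2:135753568-135754158), was at 69.4%, 73.4% and 65.2% in K700E H3B-8800, against 22.1%, 20.8% and 18.5% in K700E DMSO. GNL3, a nucleolar GTPase whose intron (chr3:52690705-52690944) also holds SNORD19B, was at 56.1%, 60.1% and 53.6%, against 15.5%, 15.4% and 16.0%. The groups lay apart in both genes (adjusted p = 7.11e-07 and 2.42e-07). LSM8 of the U6 snRNP (chr7:118184255-118185653) was at 14.9%, 13.6% and 10.8%, against 19.3%, 19.3% and 16.9%, which was not called (adjusted p = 0.0624). A match of letters is a description and not proof of class.

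A percentage can rise through fewer spliced reads, more unspliced reads or both, so each was tested on its own as log2 RPM of junction reads. In bulk RNA, fewer cells and less RNA per cell cannot be told apart. Over all introns with a mean of 10 or more such reads, spliced reads changed by a median of -0.25 and unspliced reads by a median of 1.95. Spliced reads were called lower in 37.4% and higher in 13.6% of 75993 introns, and unspliced reads higher in 80.5% and lower in 2.47% of 23929. The minimum is a mean over all 12 samples, so an intron low in DMSO can pass it through its H3B-8800 samples. That favours higher calls in the unspliced reads of these introns. In retained introns the medians were -0.72 and 0.68: spliced reads were lower in 1298 and higher in 242 of 2431, and unspliced reads higher in 1258 and lower in 279 of 2505. Scaling by the median of ratios adds 0.24 to every log2 value, so that the median over all introns becomes -0.02 for spliced reads, 10303 higher and 28412 lower calls over all introns become 17872 and 19163, and the retained introns' medians become -0.48 and 0.92.

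In the 1569 retained introns that rose, spliced reads had a median of -1.08, unspliced reads of 1.14 and reads inside the intron of 1.09. Both parts were called, spliced lower and unspliced higher, in 647. Unspliced reads alone were called higher in 365, as in CLK1 (2.43 against 0.22 for spliced reads), and spliced reads alone were called lower in another 365, as in TRAF1 (-3.69 against -0.52). In the 141 that fell, spliced reads had a median of 0.59, unspliced reads of -1.22 and reads inside the intron of -1.01. Unspliced reads were called lower in 86 of them and spliced reads higher in 70, with 21 in both. The CCDC189 intron (chr16:30760454-30760605) showed both, at 1.13 spliced and -2.22 unspliced, and the gene PHKG2 lies on its other strand. Over all introns, reads inside the intron were higher in 79.1% and lower in 2.69%.

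**Figure D4:**
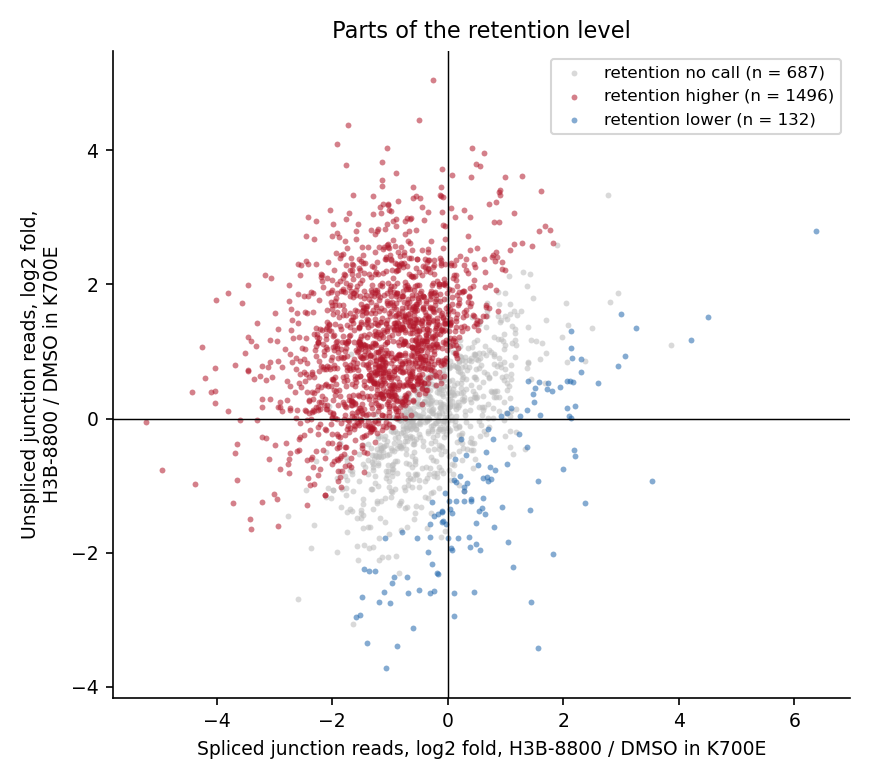
Log2 fold change, H3B-8800 over DMSO in K700E, of unspliced (vertical axis) against spliced junction RPM (horizontal axis) for retained introns with enough reads of both kinds, coloured by the call of the retention level. Introns that rose lie mostly at upper left, with medians of -1.08 (spliced) and 1.14 (unspliced). Introns that fell are not confined to the lower right. Their spliced reads had a median of 0.59 (quartiles -0.10 and 1.52) and their unspliced reads -1.22 (quartiles -1.94 and 0.04).

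Falling introns differed in make-up from rising ones. Their median length was 1161 bases, against 387 bases in rising introns, 17.0% against 4.27% lay in noncoding transcripts, and 8 of 141 held a small RNA, against 7 of 1569. An annotated exon lay inside 35.5% of falling introns, against 13.6% of rising ones. In such an intron, the junction that skips the inner exon is the one read as spliced. In 47 of the 141, an exon inside was itself tested, and in 29 of these its inclusion fell by 10 points or more with an adjusted p under 0.05. MBNL1 is such a case (chr3:152447774-152456266): spliced reads across its intron were 11.2, 9.61 and 8.01 RPM in K700E H3B-8800, against 0.202, 0.0588 and 0.0934 RPM in K700E DMSO, and unspliced reads were also higher, by 2.79 in log2. RSRP1, SREK1, TIA1, GZF1, HSD17B7 and PRPF39 also held an exon with lower inclusion. Where an exon inside was tested, it was called lower in 11 of 109 rising and 45 of 135 uncalled retained introns. Over all tested introns it was called lower in 387 of 2971. The junction that skips the exon can enter both values, so the falls of exon and intron are not independent. Among the 2114 retained introns with no annotated exon inside, 1356 rose and 91 fell. The part that exon skipping has in the falls was not tested further.

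The second comparison set K700E against WT under H3B-8800. The WT H3B-8800 samples came from the same cultures as the WT DMSO samples that chose the introns, so an intron high in WT alone could enter the set and one high in K700E alone could not, and the split between higher and lower is not independent of the choice. Of 2579 introns, 1 was higher and 18 were lower in K700E, while 0.0664% of all tested introns were higher and 0.115% lower. Of the 2028 introns below the threshold that were at 10% or more in K700E DMSO, a set chosen on K700E, 11 were higher and 0 lower. The retained introns gave 34 higher and 90 lower calls on the percent scale, and 32 and 95 with weights from read numbers; lower calls were 11, 10 and 11 without K700E replicate 1, K700E replicate 3 or WT replicate 3. At an unadjusted p under 0.05 there were 251 of the 2579, against 3521 of all 45193 tested introns. Of the 2579, 2239 differed by less than 10 points. Of the 19, 9 kept their call when any 1 of the 6 samples was left out: both introns of DCAF16, and those of RP11-242D8.1, WDR6, SUGP1, PIEZO1, GTSE1, ZBED5 and UQCC1. Names outside the 5 largest differences each way were added after their values were seen.

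DCAF16, a substrate receptor of a ubiquitin ligase, showed the largest difference, in an intron of the 5′ UTR (chr4:17804772-17805106). It was at 11.03%, 13.03% and 9.86% in K700E H3B-8800, against 76.8%, 67.3% and 76.1% in WT H3B-8800 (adjusted p = 1.5e-05). Its longer 5′ UTR intron stood at 12.3% ± 1.7 in K700E H3B-8800 and 73.8% ± 3.7 in WT H3B-8800. The 89-base intron of WDR6, a WD repeat protein (chr3:49014294-49014382), was at 18.6%, 21.0% and 16.4%, against 48.8%, 61.5% and 55.3%. Its spliced reads were 10.6, 8.78 and 10.3 RPM in K700E H3B-8800, against 2.37, 2.12 and 2.45 RPM in WT H3B-8800, with unspliced reads of 2.01 to 2.41 RPM against 2.26 to 3.39 RPM. SUGP1, a partner of SF3B1 in branch point use, was at 1.21%, 0.73% and 0.71%, against 24.2%, 27.4% and 30.6% (adjusted p = 0.000501). In all 3 introns every K700E sample lay below every WT sample.

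Other introns were called with less margin. UBA7, the enzyme that activates ISG15, held the intron that was higher, at 81.1%, 83.8% and 84.2% in K700E H3B-8800, against 48.1%, 59.7% and 61.8% in WT H3B-8800. Groups did not overlap (adjusted p = 0.0122), but the call was lost without K700E replicate 2 or 3 or WT replicate 1, with differences of 26.1, 25.9 and 22.3 points. ZCCHC11, a terminal uridylyltransferase, was at 48.4% ± 5.2, against 85.5% ± 8.4, and lost its call without K700E replicate 1 or 3 (-37.2 and -34.3 points). The calls of SLC9B2 and TOP3A were lost whichever sample was left out, although SLC9B2 kept a difference of -34.8 to -38.1 points, against -36.4 points with all samples.

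**Figure D5:**
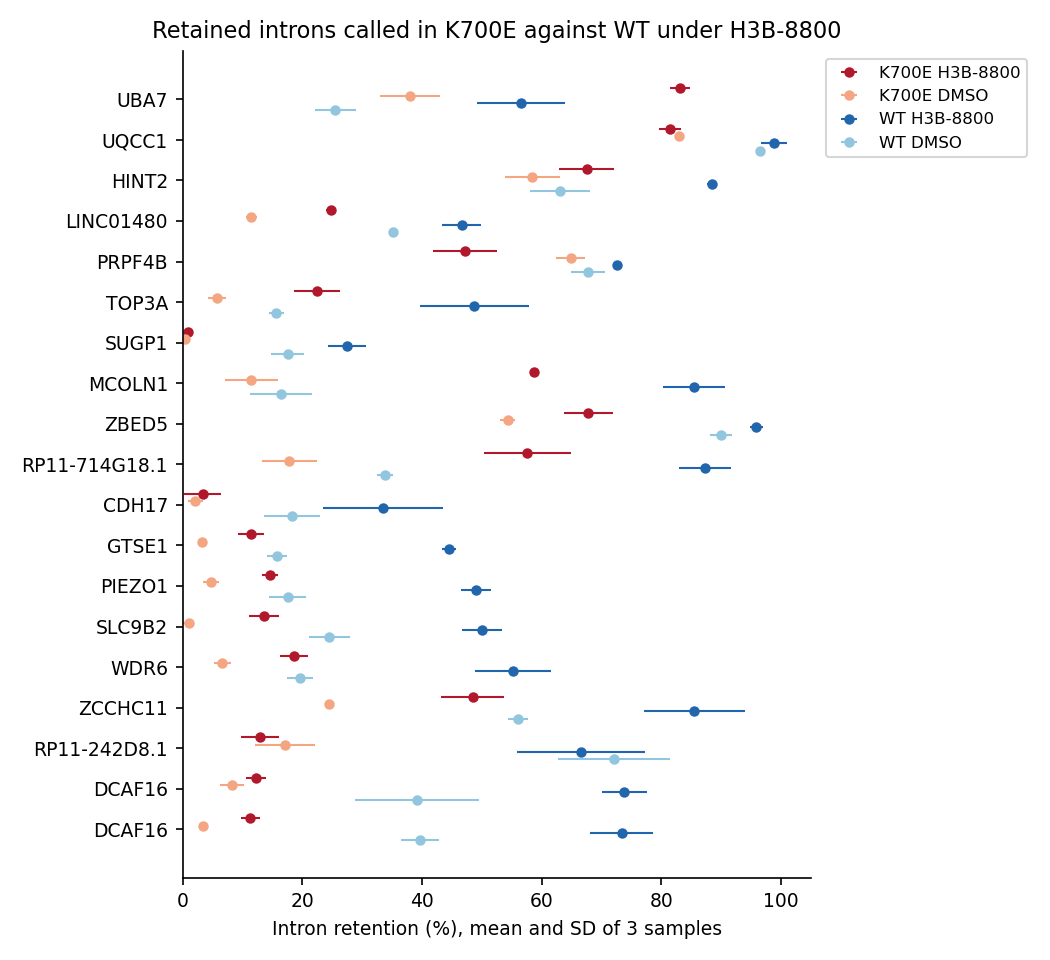
Retention in percent (horizontal axis, mean and SD of 3 samples) of the 19 retained introns called in K700E against WT under H3B-8800, ordered by the difference, with all 4 groups shown. UBA7 is higher in K700E H3B-8800 than in WT H3B-8800, and the other 18 introns are lower.

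The 2 contrasts that include WT DMSO share the samples that chose the introns, and nothing is read from their counts. H3B-8800 against DMSO in WT gave 1598 higher and 153 lower retained introns, beside 31.9% higher and 0.361% lower of all tested introns. Of the introns that rose in K700E, 1459 were also called higher in WT, and of those that fell, 107 were also called lower. The same overlap over all tested introns is not given here, so these 2 counts are a description only. K700E against WT in DMSO gave 5 higher and 20 lower, beside 0.0708% and 0.0465% of all tested introns. Of the 18 introns lower in K700E under H3B-8800, 14 were also at least 10 points lower in K700E in DMSO: DCAF16 stood at 3.93%, 3.46% and 2.66% in K700E DMSO, against 36.0%, 40.7% and 42.1% in WT DMSO.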

How the data were processed

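Per the labels' protocols, stranded libraries came from polyadenylated RNA, with 3 sequencing runs for each of 12 MEC1 samples. The submitters' processing notes name cutadapt 2.4 and the build hg38. The sources used here do not give the aligner or the event tool. The authors deposited an inclusion table that gives, per the file headers, the percent inclusion of each of 721551 events in each sample, with a text column of junction reads and corrected read numbers. Each percent is a ratio within a sample. In 4598029 values with 10 or more reads, 0 differed from inclusion reads over all reads by more than 1 point. Another 36 columns, which hold single runs, were not used. Use of strand in counting is likewise not given, so an intron overlapped by a gene on the other strand is uncertain (14.3% of the retained introns).

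The retained introns were those with 20 or more reads in all 12 samples, a WT DMSO mean of 15% or more, and an end-balance p under 0.05 in at most 6 samples. Tested events had a mean of 1% to 99%. With 0.5 added to both, inclusion over exclusion reads were put on a log2 scale. A limma model (version 3.58.1, R 4.3.3) of 4 groups and 12 samples had a trend on read number, and p-values were adjusted by Benjamini-Hochberg over all events. Spliced, unspliced and inner reads were log2 RPM of the sample's spliced reads, with 0.5 reads added and a mean of 10 or more. The test of inner reads was added after seeing the files. Scripts were tested on simulated data. Annotation was GENCODE release 29.

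The introns and gene lists were chosen with earlier results of these data known. Named introns, 1 per gene, were the 8 highest in WT DMSO, the 10 largest rises and falls in K700E with groups apart, the 5 largest differences between genotypes each way, up to 4 per gene list by size of change, 3 on each side of the threshold, and up to 4 with U12-type letters and the most reads. Further introns of the lists, and genes with many retained introns, were named after their values were seen. Some introns that met these rules are not reported here. Same-numbered samples of a genotype are the same culture. Correlations of their deviations from group means were 0.0721 to 0.0819 in K700E and 0.028 to 0.108 in WT. Alternatives comprised read minimum, pseudocount, filters, scale, weights, samples fitted, culture block and leaving out each replicate.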

Additional observations from a re-analysis of the deposited data

How the results depend on the processing

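In K700E, H3B-8800 against DMSO gave 1569 higher and 141 lower retained introns. Leaving out 1 replicate gave 1458 to 1565 higher and 123 to 142 lower. Counts moved by over 1.5 times with members at 25% or more (682 higher), with no balance filter (2360 higher, 238 lower), with a threshold of 20 points (51 lower) and, added after seeing the data, without introns that hold an exon (91 lower). The threshold of 20 points changes the size that a call needs, and the others change which introns are counted. With a replicate block by culture, 1564 rose and 134 fell, 1538 and 132 of them shared with the unblocked fit, and no other count moved by over 1.5 times.

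K700E against WT under H3B-8800 gave 1 higher and 18 lower. Higher calls were 2 with a pseudocount of 1 or only the 6 samples compared, 3 with no balance filter, 34 on the percent scale and 32 with read weights; lower calls were 10 at 25% or more, 90 on the percent scale, 95 with read weights and 11 with the 6 samples alone. The cause was not tested. Leaving out 1 replicate gave 0 to 1 higher and 10 to 14 lower. A replicate block by number, which pairs no cultures across genotypes, gave 14 lower.

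Leaving out 1 replicate gave 205 to 242 higher and 1168 to 1305 lower in spliced reads, 1116 to 1261 and 226 to 281 in unspliced reads, and 991 to 1113 and 192 to 236 in inner reads. A mean of 50 or more reads leaves fewer introns, with 744 higher and 97 lower in unspliced reads and 518 and 66 in inner reads. The K700E difference of sample medians was 27.1 points, 26.1 to 28.7 without 1 replicate and 30.0 points with no balance filter. Of single introns named, 88 were followed through the other settings: 975 values stayed on their side of the threshold, 9 lost a call, 4 gained one and 0 changed sign.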
